A study of Mus musculus with 12 samples.

Results

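The genes described here are known targets of the transcription factor p53 together with the Gadd45 family and the related stress gene Ddit4, followed on expression arrays while a mouse B-lineage line was turned towards macrophages. The list holds 10 genes: Trp53, Mdm2, Ccng1, Trp53inp1, Sesn1, Sesn2, Gadd45a, Gadd45b, Gadd45g and Ddit4. Members were every probe set that the platform annotation assigns to 1 of these symbols and to no other gene. That gave 20 probe sets of 9 genes, among 45037 probe sets that are not array controls and 18193 genes with a probe set. No probe set was listed under Trp53 itself, whose transcript is not analysed here. Of the 20 probe sets, 19 from 8 genes passed the filter on low signal and were among the 26524 tested. The probe set of Gadd45g did not pass.

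The study hybridised 12 arrays, 2 for each of 6 conditions. The C10 line carries an inducible form of the transcription factor C/EBPa, which directs myeloid differentiation. C10 cells were given ethanol, here called vehicle, or beta-estradiol for 3, 12, 24 or 48 h. HAFTL, a mouse line made from fetal liver by Ha-ras transformation, also received beta-estradiol. The labels give no time for the vehicle or the HAFTL cells, and they do not say how C10 was derived or whether the 2 samples of a condition came from separate cultures. The p-values therefore cover only the spread among these arrays, possibly a technical one. Line and estradiol cannot be told apart in the comparison of HAFTL with vehicle C10. All estradiol-treated C10 arrays are set against the same 2 vehicle arrays, so the 4 comparisons share that control.

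Array signals were used on a common scale after quantile normalisation, with signals under 16 set to 16, and differences are given in log2 units with the standard error (SE) of the fit. A difference passed when its limma p-value, adjusted over all 26524 probe sets, was below 0.05. Signals of different probe sets cannot be set against each other as levels of RNA. Of 10 B-lineage markers, 9 had a probe set, and all 9 were above the filter level in both arrays of HAFTL and of vehicle C10. The summed signal of these markers was 105736 to 105775 in vehicle and 15618 to 16806 at 48 h, and Rag1 and Rag2 lay under the level in every estradiol-treated C10 array. The summed signal of 8 macrophage markers was 1290 to 1359 in vehicle and 116685 to 116768 at 48 h. Of these 8, 7 were higher at 48 h, while Adgre1 did not pass (0.76, adjusted p = 0.16). Before that, Fcgr1 was lower than vehicle at 3 h by -1.85 and at 12 h by -0.44, and Cd68 by -0.73 and -1.76. None of 6 granulocyte markers was above the level in either vehicle array, while their summed signal was 13783 to 15400 at 24 h and 8662 to 10045 at 48 h. Only 2 of these 6 were above the level in both arrays at 24 h, and 3 at 48 h. S100a8 was at least 85.5-fold and Camp at least 107-fold higher at 24 h. Mpo passed at no time, and Ngp, under the level in vehicle and at 48 h, was lower at 48 h by -1.24 (adjusted p = 0.048). The summed signals of the T and NK cell markers stayed between 141 and 267 over all arrays, those of the erythroid markers between 51.6 and 175, and those of the stroma markers between 196 and 546. Cd3d, Cd4, Nkg7, Alas2, Col1a1 and Dcn lay under the level in every array. The stroma marker Pdgfrb did not: it was lower than vehicle at 3 h by -0.71 (adjusted p = 0.0305) and at 12 h by -0.71 (adjusted p = 0.029). It was higher at 24 h by 0.95 (adjusted p = 0.0073), and its 48 h value of -0.53 did not pass (adjusted p = 0.069). Cd8a, a T cell marker, passed in no comparison. In bulk RNA a smaller number of cells of a type and less RNA per cell cannot be told apart. The ratio of 5′ to 3′ signal of Actb, a sign of RNA quality, was 0.610 ± 0.040 (SD, n = 2) in vehicle and between 0.765 and 0.825 at the 4 estradiol times. The same ratio of Gapdh was 1.17 ± 0.03 in vehicle and between 1.16 and 1.25 at those times. The part of the marker and ratio differences in the results below was not tested.

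When a cell senses DNA damage or other stress, p53 is freed from Mdm2, the ubiquitin ligase that marks it for degradation, and switches on genes for cell-cycle arrest, repair and metabolism, including Mdm2 itself. The sestrins and Ddit4 (also called REDD1) are stress-induced inhibitors of the growth kinase complex mTORC1: sestrins act through the GATOR complexes, Ddit4 through the Tsc1-Tsc2 complex. The Gadd45 proteins are small stress and differentiation proteins that bind the kinase Map3k4 (MEKK4), the replication clamp Pcna and Cdk1, and were first described partly as early response genes of myeloid cells.

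The promoter windows of 5 members whose transcripts took different courses are printed here, so that the letters next to each start site can be read beside the values. Each is the 250 bases before the start given in the RefSeq promoter table for GRCm38.p6, 5′ to 3′ on the strand of the gene, with the matches of the motifs searched in capitals. For Ccng1 that start lies inside the gene interval given with its values.
Mdm2 promoter, chr10:117710759-117711008, minus strand: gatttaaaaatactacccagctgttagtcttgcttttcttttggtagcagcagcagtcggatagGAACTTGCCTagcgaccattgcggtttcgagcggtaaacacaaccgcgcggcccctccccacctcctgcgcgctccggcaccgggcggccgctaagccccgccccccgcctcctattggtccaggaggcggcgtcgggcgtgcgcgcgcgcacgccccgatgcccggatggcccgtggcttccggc
Ccng1 promoter, chr11:40755287-40755536, minus strand: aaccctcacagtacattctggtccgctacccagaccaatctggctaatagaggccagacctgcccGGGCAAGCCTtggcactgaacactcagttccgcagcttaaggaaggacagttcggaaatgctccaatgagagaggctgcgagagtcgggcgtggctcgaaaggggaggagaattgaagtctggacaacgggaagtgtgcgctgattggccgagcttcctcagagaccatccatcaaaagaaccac
Gadd45a promoter, chr6:67037408-67037657, minus strand: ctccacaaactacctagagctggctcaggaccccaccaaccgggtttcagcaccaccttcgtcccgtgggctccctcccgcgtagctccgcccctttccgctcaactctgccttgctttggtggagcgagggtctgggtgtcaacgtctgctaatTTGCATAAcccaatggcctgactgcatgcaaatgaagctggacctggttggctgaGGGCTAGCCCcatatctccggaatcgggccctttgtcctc
Gadd45b promoter, chr10:80929841-80930090, plus strand: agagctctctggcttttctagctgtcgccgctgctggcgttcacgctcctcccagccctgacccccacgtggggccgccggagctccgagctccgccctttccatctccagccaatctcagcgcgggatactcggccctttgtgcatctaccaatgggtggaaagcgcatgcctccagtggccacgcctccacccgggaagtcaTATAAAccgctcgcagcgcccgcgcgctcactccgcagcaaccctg
Ddit4 promoter, chr10:59951771-59952020, minus strand: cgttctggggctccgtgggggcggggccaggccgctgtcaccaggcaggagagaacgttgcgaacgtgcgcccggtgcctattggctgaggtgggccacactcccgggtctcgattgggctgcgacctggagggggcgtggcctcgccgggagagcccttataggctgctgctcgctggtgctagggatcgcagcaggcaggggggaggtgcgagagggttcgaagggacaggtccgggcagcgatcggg
Promoters of 8 of the 9 genes were found in the table used. Both strands were searched for the p53 decamer (1 copy of the repeated unit of the p53 consensus), the C/EBP letters TTGCNNAA, the ATF4 letters TGATGNAA, TATAAA, and for the palindromic oestrogen response element and the NF-kB decamer by name. A full p53 site holds more than 1 such decamer, and full sites were not searched for. The C/EBP and ATF4 letters can overlap each other. The p53 decamer occurred in the windows of Mdm2, Ccng1 and Gadd45a and in the second Sesn1 promoter, at bases -186 to -177, -185 to -176, -40 to -31 and -173 to -164 from the start; 7.13% of 32851 RefSeq promoters held it. The capitals in the Mdm2 and Ccng1 windows are that decamer. Gadd45a held the C/EBP letters at -95 to -88 as well, which 9.56% of promoters held, and the first block of capitals in its window marks them. The capitals in the Gadd45b window are TATAAA at -46 to -41, which 12.4% of promoters held and which Gadd45g held at -27 to -22. The ATF4 letters were found in Gadd45g alone among the 9 windows, at -101 to -94, against 3.45% of promoters. No member window held the oestrogen response element or the NF-kB decamer, found in 0.0639% and 1.21% of promoters, and the Ddit4 window held none of the 6 motifs. A match describes letters and is not a bound site.

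The members did not move as a block. At 3 h Ccng1, Trp53inp1, Sesn2 and Ddit4 were lower than in vehicle and Gadd45a was higher, and by 48 h Mdm2, Sesn2 and Gadd45b were higher while Ddit4 was again lower. At 3 h, 12 of the 19 probe sets passed, 4 higher and 8 lower, against 40.9% of all probe sets tested (20.6% higher and 20.3% lower). The 12 h comparison gave 9, of which 1 was higher and 8 lower, against 43.8% of all (22.1% and 21.7%). The 24 h comparison gave 8, divided into 4 higher and 4 lower, against 50.1% (23.7% and 26.4%). The 48 h comparison gave 9, with 8 higher and 1 lower, against 55.6% (25.5% and 30.0%). The median log2 difference of the 19 probe sets went from -0.48 (3 h and 12 h) through -0.15 (24 h) to 0.32 (48 h), while that of all probe sets lay between -0.06 and 0.03. In a test over the whole C10 course, 17 of 19 passed, against 69.0% of all. Counted by gene, with the brightest probe set standing for each of 8 genes, 1 was higher and 4 lower at 3 h, and 3 were higher and 1 lower at 48 h. Brighter probe sets passed more often than the whole. Of those kept by a filter at the 70th percentile of signal, 59.5% (3 h) and 75.2% (48 h) passed in either direction. The share over all genes by their brightest probe set is not given here.

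**Figure D1:**
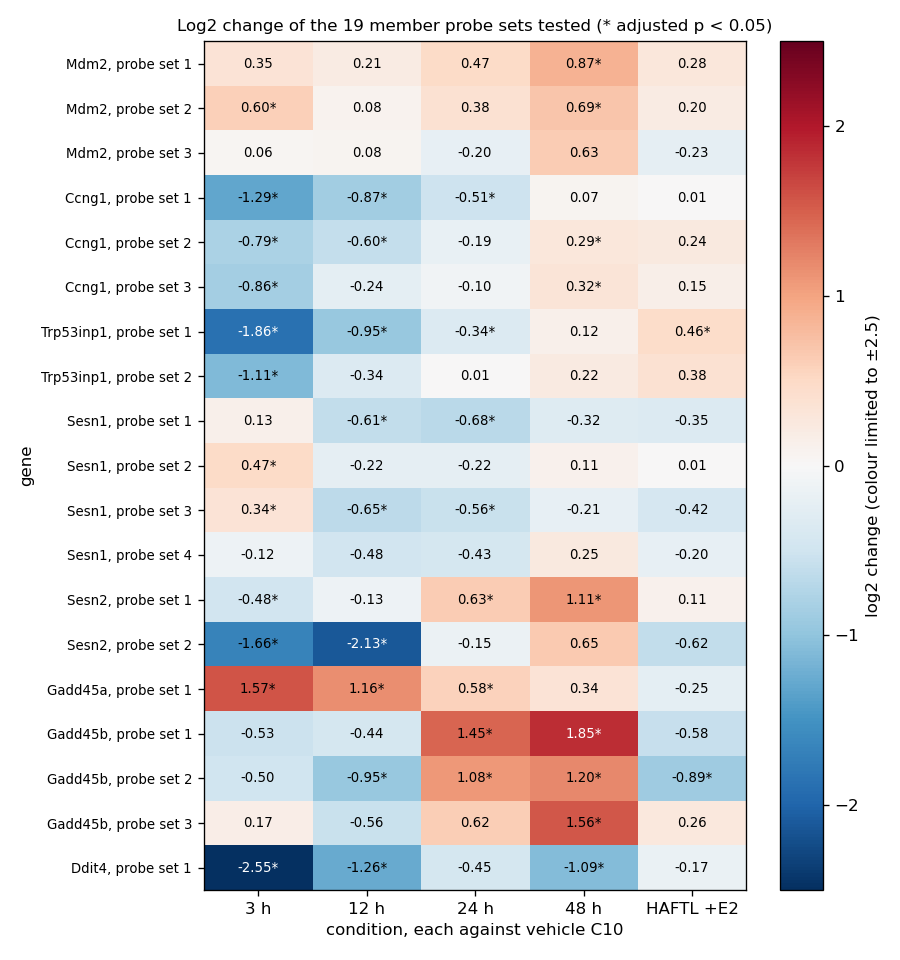
Log2 difference from vehicle C10 (colour, printed in each cell) for the 19 member probe sets tested (rows, numbered within a gene from the brightest) at 3, 12, 24 and 48 h of estradiol and in HAFTL (columns). Stars mark an adjusted p below 0.05; the left columns hold mostly negative values for Ccng1, Trp53inp1, Sesn2 and Ddit4, and the 48 h column holds 8 starred positive values and 1 starred negative value.

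These differences are relative to the bulk of the probe sets, and 1 other scaling moves them together. With scaling by the 27 poly-A spike-in probe sets instead, the median difference of all probe sets became 0.65 (3 h), 0.48 (12 h), 0.30 (24 h), 0.50 (48 h) and 0.00 (HAFTL). The member counts then became 3 higher and 1 lower (3 h), 1 and 1 (12 h), 2 and 0 (24 h), and 6 and 0 (48 h). Under that scaling 24.4% (3 h), 20.6% (12 h), 21.6% (24 h) and 32.6% (48 h) of all 27048 probe sets tested passed in either direction. Their shares in each direction are not given here, so the directions of the member counts cannot be set against those of all probe sets. The calls for Gadd45a at 3 and 12 h, Ddit4 at 3 h, Gadd45b at 24 h, and Mdm2, Sesn2 and Gadd45b at 48 h were kept. Those for lower Ccng1, Trp53inp1 and Sesn1, for lower Sesn2 at 3 h and for lower Ddit4 at 48 h did not pass there. The SE of Trp53inp1 probe set 1416926_at at 3 h was 0.42 under that scaling and 0.09 with quantile normalisation. The mean log2 spike-in signal was 7.53 and 6.52 on the 2 arrays at 48 h.

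**Figure D2:**
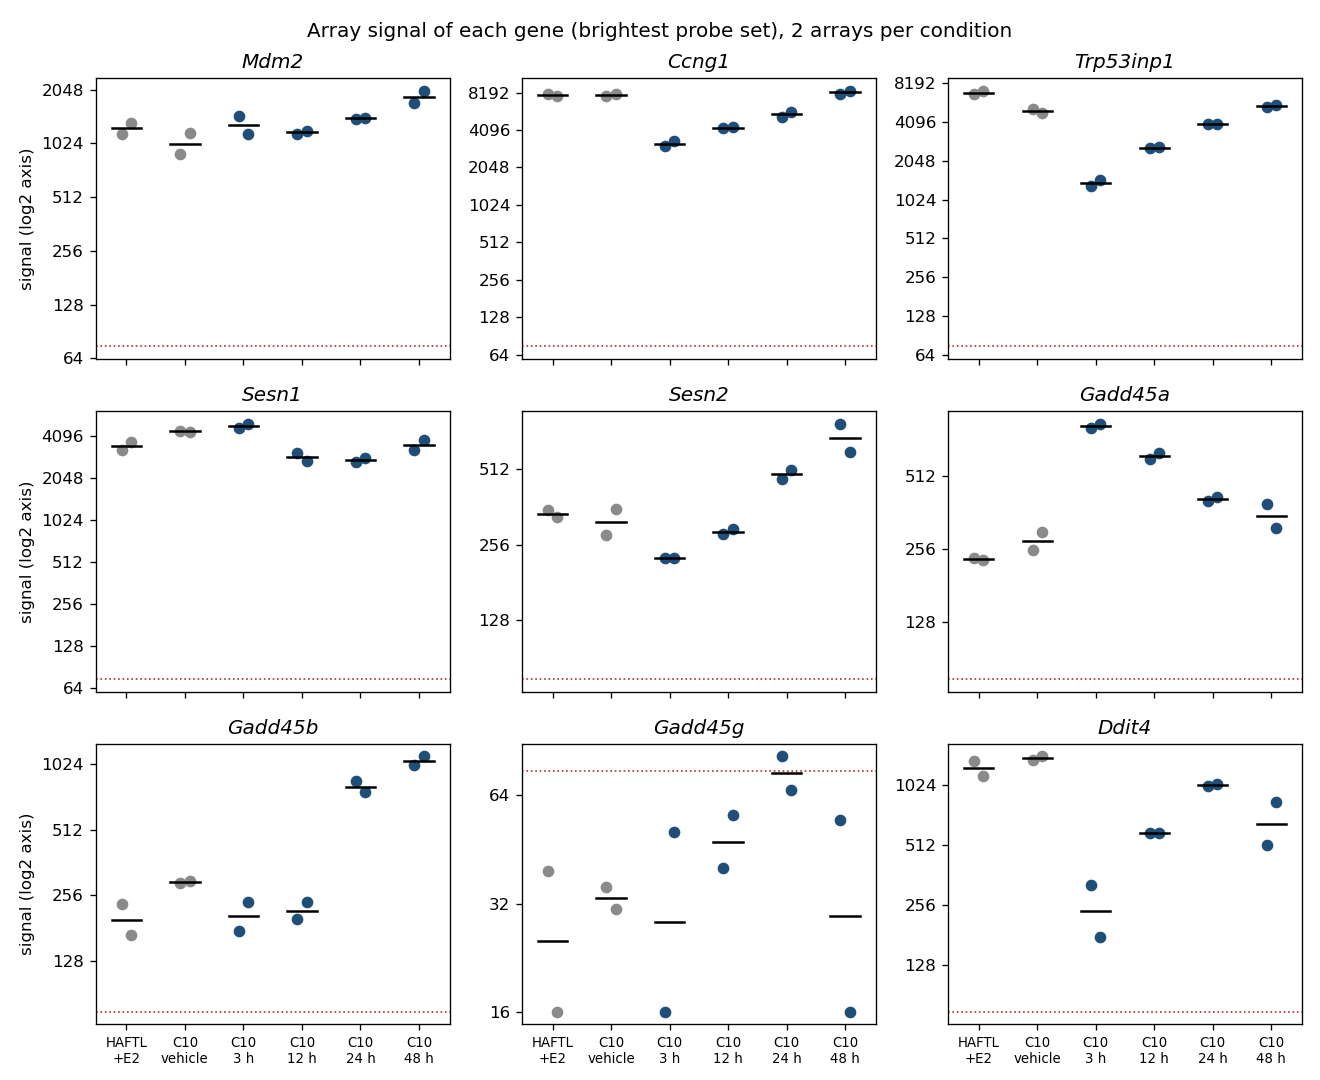
Normalised signal (log2 axis) of the brightest probe set of each of 9 genes in HAFTL, vehicle C10 and C10 at 3, 12, 24 and 48 h of estradiol. Dots are the 2 arrays, black lines the geometric mean and the red dotted line the filter level (74.6); Gadd45a peaks at 3 h with 807 and 842, Ddit4 is lowest there with 178 and 323, and Gadd45b is highest at 48 h with 1013 and 1109.

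Mdm2, the ligase that holds p53 in check and is itself a p53 target, lies at chr10:117688875-117710758. Its brightest probe set, 1423605_a_at, read 887 and 1172 in vehicle, 1461 and 1158 after 3 h, 1160.4 and 1206 after 12 h, 1409 and 1418 after 24 h, 1728 and 2007 after 48 h, and 1155 and 1335 in HAFTL. The 48 h arrays stood above all others and did not overlap vehicle, whereas the 3 h, 12 h and HAFTL arrays did. At 48 h the signal was 1.83-fold that of vehicle, a log2 difference of 0.87 (SE 0.17, adjusted p = 0.0032). The difference at 24 h was 0.47 (adjusted p = 0.052) and did not pass. Probe set 1427718_a_at was higher at 48 h by 0.69 (SE 0.14, adjusted p = 0.0038) and at 3 h by 0.60 (adjusted p = 0.011), with a value of 0.08 between them at 12 h. The 3 h call of this probe set was lost without the first vehicle array, without the first 3 h array, or with HAFTL as the control. The dimmest Mdm2 probe set, 1457929_at, passed in no comparison, with an SE of 0.50.

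Ccng1 and Trp53inp1 were both lowest at 3 h, and by 48 h their arrays lay above those of vehicle by margins that did not pass for the brightest probe sets. Ccng1 encodes cyclin G1, a p53 target that brings a phosphatase to Mdm2, and lies at chr11:40748552-40755309. Its probe set 1420827_a_at read 7670.4 and 7969 in vehicle, 3042 and 3339 after 3 h, 4236 and 4304 after 12 h, 5249.6 and 5722 after 24 h, 8011 and 8412 after 48 h, and 8011 and 7730.1 in HAFTL. The arrays at 3, 12 and 24 h lay below every vehicle array in that order, and both 48 h arrays lay just above vehicle. Ccng1 fell 2.45-fold at 3 h (log2 difference -1.29, SE 0.09, adjusted p = 3.7e-05). It was still lower at 12 h by a log2 difference of -0.87 (adjusted p = 1.9e-04) and at 24 h by -0.51 (adjusted p = 0.0021), and at 48 h the difference was 0.07 (adjusted p = 0.54). Each step upwards passed, the first by 0.42 (adjusted p = 0.013), the next by 0.36 (adjusted p = 0.017) and the last by 0.58 (adjusted p = 0.0050). The first 2 of these steps were lost when either 12 h array was left out and under median centring. The other Ccng1 probe sets, 1450017_at and 1450016_at, were lower at 3 h by -0.79 and -0.86. At 12 h 1450017_at was lower by -0.60 while the value of 1450016_at was -0.24 (adjusted p = 0.14), and at 24 h neither passed, at -0.19 (adjusted p = 0.14) and -0.10 (adjusted p = 0.53). At 48 h they stood 0.29 and 0.32 above vehicle with adjusted p of 0.034 and 0.045. Those 2 small rises at 48 h were lost without the first vehicle array or either 48 h array. Under spike-in scaling the 3 h difference of 1420827_a_at was -0.46 (adjusted p = 0.42), which is -1.11 relative to the median of all probe sets.

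Trp53inp1, a nuclear protein that aids p53 phosphorylation and is also involved in autophagy, lies at chr4:11156441-11174379. Probe set 1416926_at read 5192 and 4813 in vehicle, 1298 and 1461 after 3 h, 2553 and 2624 after 12 h, 3936 and 3937 after 24 h, 5367 and 5533 after 48 h, and 6713 and 7082 in HAFTL. Its C10 arrays climbed from 3 h to 48 h, the pairs at 3, 12 and 24 h lay below vehicle, and both HAFTL arrays were above all C10 arrays. The fall at 3 h was 3.63-fold (log2 difference -1.86, SE 0.09, adjusted p = 9.6e-06). The difference was -0.95 at 12 h (adjusted p = 1.4e-04), -0.34 at 24 h (adjusted p = 0.015) and 0.12 at 48 h (adjusted p = 0.29). All 3 steps upwards passed, by 0.91, 0.60 and 0.47, the last of them lost without either 24 h array or the second 48 h array. The 24 h call was lost without the first vehicle array or either 24 h array. Under spike-in scaling the 3 h difference was -1.11 (adjusted p = 0.058), or -1.77 relative to the median of all probe sets, and at 24 h it turned to 0.10. In HAFTL this probe set was higher by 0.46 (adjusted p = 0.022), a call lost when any of the 4 arrays compared was left out. The dimmer probe set 1416927_at was lower at 3 h by -1.11 (SE 0.35, adjusted p = 0.039) and passed at no other time. That 3 h call was lost without either vehicle array or either 3 h array.

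**Figure D3:**
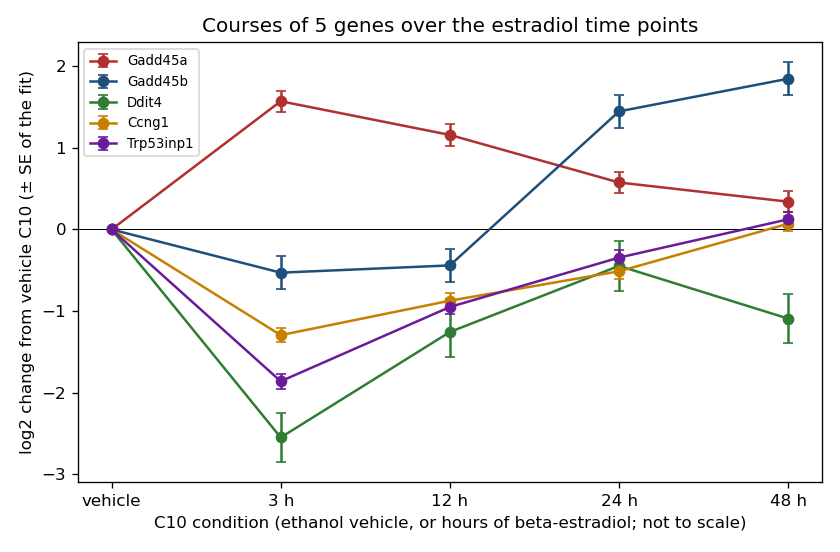
Log2 difference from vehicle C10 (vertical axis, ± SE of the fit, n = 2 arrays per condition) for the brightest probe set of 5 genes at vehicle and 3, 12, 24 and 48 h of estradiol (horizontal axis, not to scale in time). Gadd45a is highest at 3 h (1.57) and declines. Gadd45b is below vehicle at 3 and 12 h, by differences that did not pass, and reaches 1.85 at 48 h. Ccng1 and Trp53inp1 climb back from 3 h, and Ddit4 has low points at 3 h (-2.55) and 48 h (-1.09).

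The sestrins moved at different times. Sesn1, at chr10:41810574-41908436, read 4509 and 4422 in vehicle, 4706 and 5049 after 3 h, 3119 and 2743 after 12 h, 2704 and 2876 after 24 h, 3279 and 3882 after 48 h, and 3276 and 3749 in HAFTL for probe set 1438931_s_at. The 12 and 24 h arrays were the lowest and the 3 h arrays the highest. Sesn1 was lower at 12 h by -0.61 (SE 0.12, adjusted p = 0.0050) and at 24 h by -0.68 (adjusted p = 0.0024), and the step from 3 to 12 h was -0.74 (adjusted p = 0.0048). Under spike-in scaling the 12 and 24 h values were -0.03 and -0.25, and neither passed. Against HAFTL in place of vehicle as the control neither passed either. Probe set 1454699_at showed the same 2 falls, -0.65 and -0.56. At 3 h this probe set and 1433711_s_at stood above vehicle by 0.34 (adjusted p = 0.046) and 0.47 (adjusted p = 0.044), calls that were lost without either vehicle array. The values of 1433711_s_at at 12 and 24 h, both -0.22, did not pass (adjusted p = 0.30 and 0.29). The fourth probe set, 1444376_at, passed against vehicle at no time.

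Sesn2, the sestrin that senses leucine and is induced by p53, ATF4 and oxidative stress, lies at chr4:132492804-132510456. Probe set 1425139_at read 280.0 and 356 in vehicle, 226 and 226 after 3 h, 282 and 295 after 12 h, 469 and 507 after 24 h, 777 and 599 after 48 h, and 353 and 329 in HAFTL. The 24 and 48 h arrays were above every array of the other conditions. Sesn2 was 2.16-fold higher at 48 h (log2 difference 1.11, SE 0.15, adjusted p = 5.1e-04) and higher at 24 h by 0.63 (adjusted p = 0.011), a call lost without the first vehicle array or the second 24 h array. The 3 h value was -0.48 (adjusted p = 0.040), lost without the second vehicle array or either 3 h array and 0.07 under spike-in scaling.

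The second Sesn2 probe set, 1451599_at, read 396 and 476 in vehicle, 189 and 99.6 after 3 h, 142 and 69.7 after 12 h, 404 and 379 after 24 h, 654 and 708 after 48 h, and 373 and 214 in HAFTL. Its 3 and 12 h arrays were the lowest, and the 48 h arrays the highest. It was 4.36-fold lower at 12 h (log2 difference -2.13, SE 0.42, adjusted p = 0.0048) and lower at 3 h by -1.66 (adjusted p = 0.016), and it rose by 1.97 from 12 to 24 h (adjusted p = 0.0085). The 3 h call was lost without the second vehicle array or the second 3 h array, and the step to 24 h without the second 12 h array. Under spike-in scaling the 3 h call was lost as well. At 48 h its difference of 0.65 did not pass (adjusted p = 0.23). The probe sets of Sesn2 thus disagree at 12 h, where 1425139_at gave -0.13 (adjusted p = 0.53).

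Ddit4, the inhibitor of mTORC1 induced by hypoxia, glucocorticoids, ATF4 and p53, lies at chr10:59949675-59951770. It read 1375 and 1429.8 in vehicle, 323 and 178 after 3 h, 587 and 588 after 12 h, 1014 and 1044 after 24 h, 514 and 841 after 48 h, and 1355 and 1144 in HAFTL for its 1 probe set, 1428306_at. All estradiol-treated C10 arrays lay below both vehicle arrays, lowest at 3 h, and the 48 h arrays lay below the 24 h arrays. The fall at 3 h was 5.85-fold (log2 difference -2.55, SE 0.30, adjusted p = 4.5e-04), and -1.99 under spike-in scaling (adjusted p = 0.0072), or -2.64 relative to the median of all probe sets. Ddit4 was lower at 12 h by -1.26 (adjusted p = 0.011) and at 48 h by -1.09 (adjusted p = 0.016), with -0.45 at 24 h (adjusted p = 0.26). The rise from 3 to 12 h was 1.29 (adjusted p = 0.019), lost without the second 3 h array or either 12 h array, and the value of -0.65 from 24 to 48 h did not pass (adjusted p = 0.19). The 12 h call was lost without the second vehicle array or the first 12 h array, and the 48 h call without either vehicle array or the first 48 h array. The 48 h call was also lost under spike-in scaling, where no member probe set was lower at that time.

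Of the Gadd45 genes, Gadd45a was high early and Gadd45b late. Gadd45a, the family member that p53 induces, lies at chr6:67035096-67037407, and the window printed above holds both the p53 decamer and the C/EBP letters. It read 255 and 302 in vehicle, 807 and 842 after 3 h, 600.5 and 639 after 12 h, 406 and 422 after 24 h, 394 and 314 after 48 h, and 236 and 231 in HAFTL for probe set 1449519_at. The estradiol-treated C10 arrays were all above vehicle, and each condition was below the one before it. Gadd45a rose 2.97-fold at 3 h (log2 difference 1.57, SE 0.13, adjusted p = 8.1e-05). The difference was 1.16 at 12 h (adjusted p = 3.1e-04) and 0.58 at 24 h (adjusted p = 0.0075), and at 48 h the value of 0.34 did not pass (adjusted p = 0.058). The 3 and 12 h calls held under every alternative run, while the 24 h call was lost without the first vehicle array and under spike-in scaling.

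Gadd45b, the member known as an early myeloid response gene and an NF-kB target, lies at chr10:80930091-80932204. Probe set 1450971_at read 291 and 298 in vehicle, 175 and 238 after 3 h, 199 and 237 after 12 h, 852 and 757 after 24 h, 1013 and 1109 after 48 h, and 233 and 167 in HAFTL. The 24 and 48 h arrays were far above all others, and the 3 h, 12 h and HAFTL arrays were all below vehicle. Gadd45b was 2.73-fold higher than vehicle at 24 h (log2 difference 1.45, SE 0.20, adjusted p = 6.2e-04) and 3.60-fold at 48 h (1.85, adjusted p = 1.3e-04). The step from 12 to 24 h was 1.89 (adjusted p = 2.8e-04). The 3 and 12 h values, -0.53 and -0.44, did not pass.

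Probe set 1449773_s_at of Gadd45b gave 1.08 at 24 h, 1.20 at 48 h and a step of 2.03 from 12 to 24 h (adjusted p = 1.2e-04). It was lower at 12 h by -0.95 (adjusted p = 0.0041) and in HAFTL by -0.89 (adjusted p = 0.025), and the HAFTL call was lost when any of the 4 arrays compared was left out. The 12 h call was lost under spike-in scaling, where the value was -0.50. The dim probe set 1420197_at read 43.9 and 77.5 in vehicle and 212 and 139 at 48 h, a difference of 1.56 (SE 0.37, adjusted p = 0.0077) that was lost without the first vehicle array or the first 48 h array.

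Gadd45g, the third family member, lies at chr13:51846675-51848475 and had 1 probe set, 1453851_a_at. It read 35.7 and 30.8 in vehicle, 16 and 50.7 after 3 h, 40.1 and 56.4 after 12 h, 82.2 and 66.4 after 24 h, 54.7 and 16 after 48 h, and 39.4 and 16 in HAFTL. Only 1 array, at 24 h, was above the filter level of 74.6, so Gadd45g was not tested and no difference in it was measurable here.

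Between HAFTL and vehicle C10 the Trp53inp1 and Gadd45b calls given above were the 2 that passed among 19 member probe sets, 1 higher and 1 lower, against 9.40% of all probe sets (4.42% higher and 4.98% lower). The largest HAFTL value of the other 17 in either direction was -0.62, for Sesn2 probe set 1451599_at (adjusted p = 0.42). Between successive times the members passed most often from 12 to 24 h, with 8 probe sets higher and 1 lower, against 34.6% of all (16.5% higher and 18.1% lower). From 3 to 12 h the counts were 4 higher and 4 lower, against 23.3% of all (12.1% and 11.2%). From 24 to 48 h they were 5 higher and 0 lower, against 18.4% of all (7.26% and 11.1%). Without the second 12 h array the total fell from 8 to 3 from 3 to 12 h and from 9 to 4 from 12 to 24 h. Without the first 24 h array the total from 24 to 48 h fell from 5 to 1.

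The rest of the pathway was read from lists of other genes, each gene standing by its brightest probe set. Of 36 other p53 targets, 33 had a probe set and 28 were tested. Of these, 15 were lower and 3 higher after 3 h, then 12 lower and 7 higher (12 h), 11 and 8 (24 h), and 9 and 10 (48 h). Of all probe sets, 20.3% were lower and 20.6% higher after 3 h, then 21.7% and 22.1% (12 h), 26.4% and 23.7% (24 h), and 30.0% and 25.5% (48 h). These are also the shares for the lists below. They include dim probe sets, while a list gene stands by its brightest, and brighter probe sets passed more often. Of those kept by a filter at the 70th percentile of signal, 59.5% (3 h), 62.8% (12 h), 70.3% (24 h) and 75.2% (48 h) passed in either direction. The median log2 difference of the other targets was -0.35 at 3 h and -0.10 at 48 h, the latter -0.05 without the second 48 h array and -0.17 without the first. Spike-in scaling moved the median of all probe sets upwards, and relative to it the medians of the other targets were -0.38 and -0.07. The counts of lower and higher genes became 4 and 4 (3 h), 1 and 5 (12 h), 2 and 6 (24 h), and 2 and 10 (48 h). At 3 h the count of higher genes was 1 without the first 3 h array.

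Cdkn1a, the cell-cycle inhibitor p21, differed from vehicle by -1.69 after 3 h (SE 0.12, adjusted p = 4.7e-05) and was then higher, by 0.98 (12 h), 2.21 (24 h) and 2.78 (48 h, adjusted p = 1.3e-06). Btg2, an antiproliferative gene, Bbc3, which encodes the cell-death protein PUMA, and Zmat3, an RNA-binding protein, were lower at 3 h by -2.46, -2.15 and -2.12. These 3 were named after their values were seen, as the deepest 3 h differences of the list. Btg2 was higher than vehicle at 48 h by 1.11 (adjusted p = 8.9e-04), while Zmat3 was at 0.04.

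Fas, the death receptor, was under the filter level in vehicle and at least 1.13-fold higher at 3 h, at least 3.88-fold at 12 h and at least 23.4-fold at 48 h. Pml, the nuclear body protein, was lower at 3 h by -0.85 and higher at 48 h by 1.97. Trp53i13 was higher by 1.96 at 48 h. Rrm2b, a subunit of ribonucleotide reductase that p53 induces, stayed lower throughout, by -1.30 at 3 h and -2.10 at 48 h. Sesn3, the remaining sestrin, was lower by -0.59 at 3 h and higher by 0.88 at 24 h and 0.90 at 48 h, but its 3 h value was 0.04 under spike-in scaling.

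**Figure D4:**
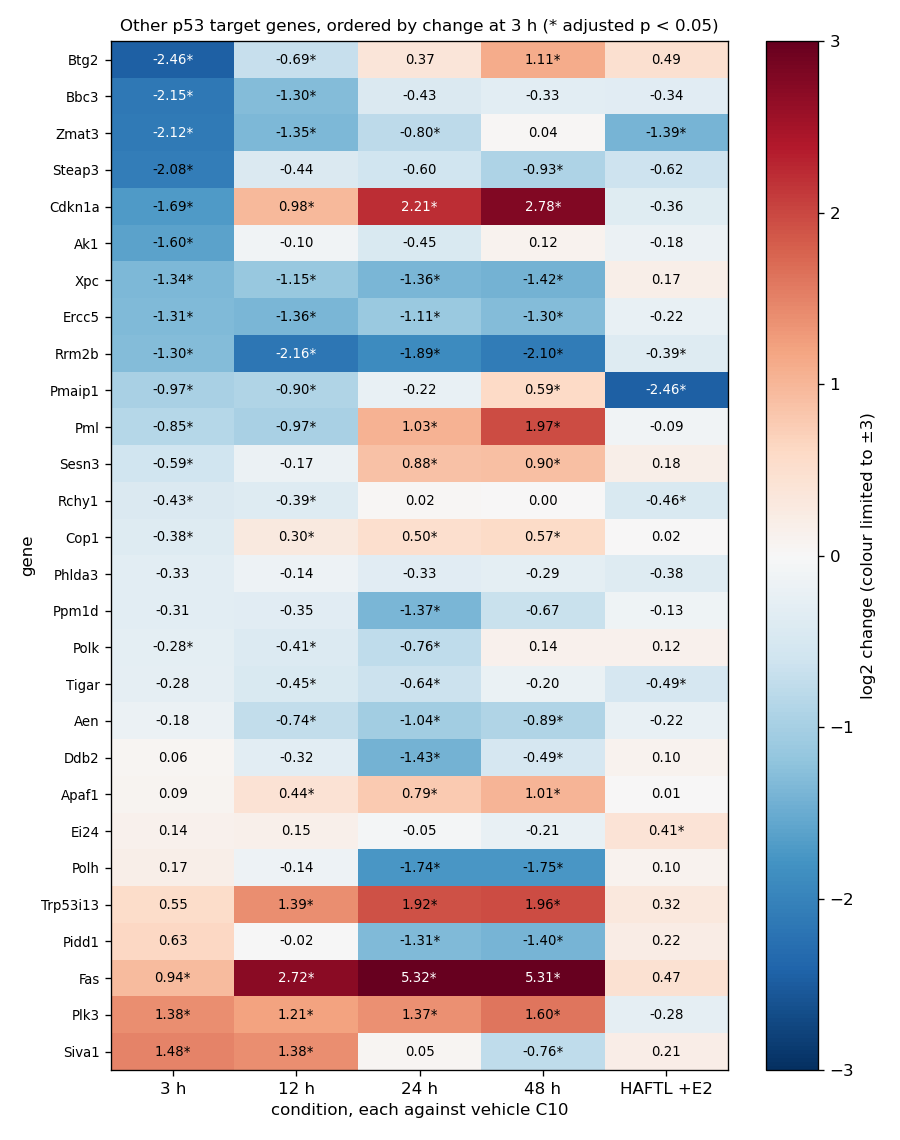
Log2 difference from vehicle C10 (colour, printed in each cell) of 28 other p53 targets (rows, ordered by the 3 h value) at 3, 12, 24 and 48 h of estradiol and in HAFTL (columns), stars marking an adjusted p below 0.05. Btg2 (-2.46), Bbc3 (-2.15) and Zmat3 (-2.12) are the lowest at 3 h, and Fas and Cdkn1a the highest at 48 h; values of Fas are fitted against vehicle signals under the filter level.

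Among the regulators of p53, 18 of 22 were tested, with 4 higher and 6 lower after 3 h, then 5 and 7 (12 h), 3 and 10 (24 h), and 3 and 11 (48 h). The median was 0.02 at 3 h, with values from -0.06 to 0.04 when single arrays were left out, and -0.51 at 48 h. Under spike-in scaling these were -0.03 and -0.46 relative to all probe sets, and the counts of higher and lower genes were 3 and 0 (3 h), 3 and 0 (12 h), 1 and 4 (24 h), and 3 and 4 (48 h). Without the second vehicle array 3 were higher at 12 h. Mdm4, the relative of Mdm2 that also restrains p53, was lower at every time, by -1.26 at 3 h and -0.73 at 48 h (adjusted p = 0.0014). Cdkn2a, whose locus encodes the Mdm2 inhibitor ARF, was at -0.03 at 3 h and rose to 1.74 at 48 h (adjusted p = 1.0e-05). The checkpoint kinases Chek1 and Chek2 were higher at 3 h, by 1.23 and 0.64, and lower at 48 h, Chek1 at least 8.35-fold and Chek2 by -1.91. Atr, the kinase above Chek1, was lower at 24 h by -1.76, and Trp53bp1, a DNA-break protein that binds p53, was lower at 48 h by -2.07. Atr at 3 h was -0.43, and 0.19 under spike-in scaling.

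Of the partners of the Gadd45 proteins, 12 of 15 were tested: 6 were higher and 1 lower after 3 h, then 6 and 2 (12 h), 4 and 5 (24 h), and 3 and 5 (48 h). The medians were 0.34 at 3 h and -0.25 at 48 h, the latter -0.61 without the first vehicle array and -0.03 without the first 48 h array. Under spike-in scaling they were 0.22 and -0.27 relative to all probe sets, and the counts of higher and lower genes were 5 and 0 (3 h), 4 and 0 (12 h), 2 and 0 (24 h), and 3 and 2 (48 h). The 1 lower gene at 3 h was lost without either HAFTL array, either vehicle array or either 3 h array, and under spike-in scaling. Map3k4, the kinase that Gadd45 proteins bind, was at -0.08 at 3 h (adjusted p = 0.67) and lower at 24 h by -1.41 and at 48 h by -1.52 (adjusted p = 3.2e-05), the times at which Gadd45b was high. Cdk1 was higher at 3 h by 2.35 and lower at 48 h by -3.79, and Pcna went from 1.28 to -1.69. Map2k6, a kinase of the p38 pathway, was at least 2.55-fold lower at 12, 24 and 48 h, and Gadd45gip1 was lower at 48 h by -1.33.

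Genes of mTORC1 and the GATOR complexes, the machinery that sestrins and Ddit4 act on, were tested for 21 of 23. After 3 h, 3 were higher and 8 lower, then 1 and 10 (12 h), 1 and 8 (24 h), and 2 and 11 (48 h). The medians lay between -0.48 and -0.29, and that at 24 h was -0.12 without the second 24 h array. Under spike-in scaling the medians at 3, 24 and 48 h were -0.40, -0.29 and -0.40 relative to all probe sets, and the counts of higher and lower genes were 3 and 1 (3 h), 1 and 1 (12 h), 1 and 2 (24 h), and 0 and 2 (48 h). Without the second vehicle array 5 genes were lower at 3 h and 5 at 24 h, and without the first 48 h array 7 were lower at 48 h. Mtor itself was lower by -2.11 at 3 h and -2.29 at 48 h (SE 0.11, adjusted p = 1.6e-06). At 48 h Prkaa2, a catalytic subunit of AMPK, was lower by -1.70, Mios, a GATOR2 subunit, by -1.63, Eif4ebp1, a target of mTORC1, by -1.41 and Rptor, which defines mTORC1, by -1.13. Eif4ebp1 at 3 h was -0.84, and 0.02 under spike-in scaling. Ddit4l, the relative of Ddit4, did not pass the filter.

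All 17 genes of the stress pathways that act on Ddit4 or Sesn2, or that report on them, were tested. After 3 h, 5 were higher and 10 lower, then 5 and 9 (12 h), 6 and 9 (24 h), and 6 and 10 (48 h), with medians of -0.98 at the first time and -1.02 at the last. Under spike-in scaling these medians were -0.84 and -0.80 relative to all probe sets, and the counts of higher and lower genes were 4 and 5 (3 h), 4 and 4 (12 h), 6 and 5 (24 h), and 6 and 5 (48 h). Without the second vehicle array 3 were higher at 3 h. Ddit3, the stress factor CHOP, was lower by -2.76 at 3 h and -1.39 at 48 h (adjusted p = 1.1e-05), and Trib3, induced by ATF4 and CHOP, by -3.09 and -3.79. Atf4 itself was at -0.12 at 3 h and lower at 48 h by -1.02, Asns, an ATF4 target, by -2.58 at 48 h, and Eif2ak4, the amino-acid sensing kinase GCN2, by -2.36. Under spike-in scaling Atf4 at 12 h went from -0.32 to 0.36, and Asns at 3 h from -0.70 to 0.18. Tsc22d3, the glucocorticoid-induced gene GILZ, was lower by -2.03 at 3 h and -1.56 at 48 h. Slc2a1, the glucose transporter that hypoxia induces, was higher by 2.03 at 48 h, and Egln3, an oxygen-sensing hydroxylase also induced by hypoxia, was at least 1.64-fold higher at 3 h and at least 4.55-fold at 12 h.

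**Figure D5:**
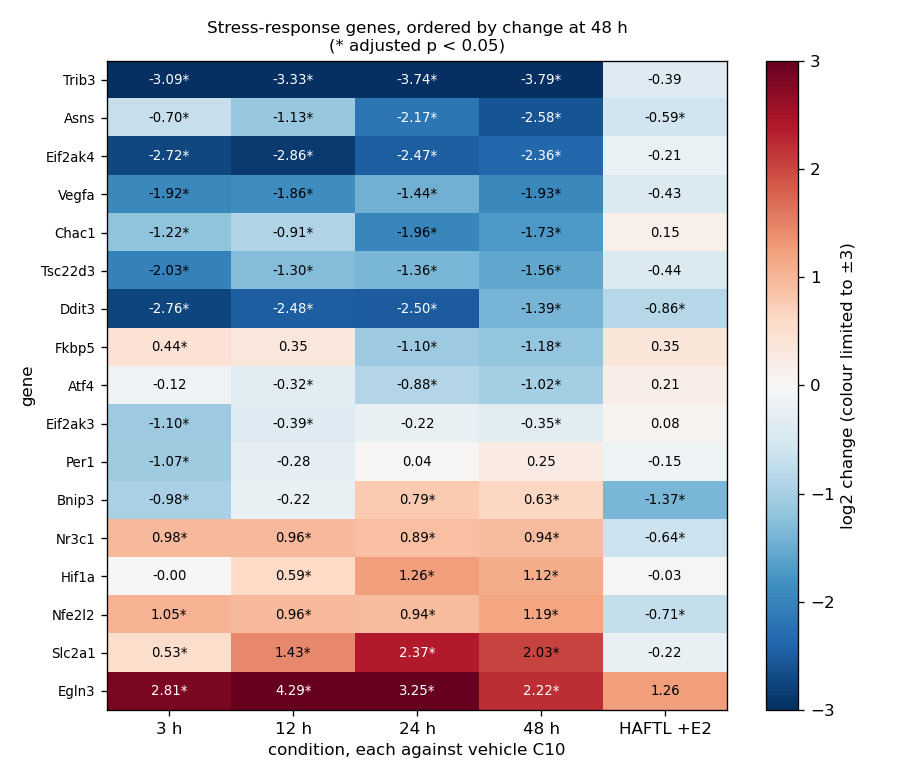
Log2 difference from vehicle C10 (colour, printed in each cell) of 17 stress-response genes (rows, ordered by the 48 h value) at 3, 12, 24 and 48 h of estradiol and in HAFTL (columns), stars marking an adjusted p below 0.05. Trib3 is the lowest at 48 h (-3.79) and Slc2a1 (2.03) and Egln3 are the highest; values of Egln3 are fitted against vehicle signals under the filter level.

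The genes with the most similar course to each member were taken from 11695 genes by the root mean square distance between log2 differences from vehicle over the 5 other conditions. For Gadd45a these were Zwint, a kinetochore protein, at 0.188, then Zbtb45 and Plagl2. For Gadd45b they were Cracr2b at 0.166, then 4930447M23Rik and Ehd4, an endocytic protein. For Sesn2 they were Mir142, as the annotation names it, at 0.0728, then Peli1 and Fcgr2b, an inhibitory Fc receptor. For Mdm2 they were Slc10a3 at 0.0773, Pigk and Abcg8, and for Sesn1 Ube2w, at 0.119, Zfp91 and Tead3. For Ddit4 they were Tspan32 at 0.202, then Vav2 and Gm11944. Trp53inp1 was nearest to Slc66a2 at 0.192, Rprd1a and Pear1, and Ccng1 to 4931406C07Rik at 0.139, Bicral and Uty. The 2 members Ccng1 and Trp53inp1 were not among each other's nearest 3 genes. The conditions share the vehicle arrays, so these distances describe courses and carry no test.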

How the data were processed

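Total RNA of 12 samples (6 conditions of 2) was measured on Affymetrix-labelled arrays. The deposited table holds linear intensity per probe set, 45101 in all; the mean without 2% at each end was 500 in every array, so the authors' values share a scale, while the summarising method is not given in the sources used here. Intensities were quantile normalised over all probe sets, floored at 16 and taken to log2. Probe sets above 74.6, the median of non-control values, in at least 2 arrays were tested, 26524 of 45037. Genes come from the platform annotation, with names and coordinates from RefSeq GRCm38.p6: 34945 probe sets have 1 gene (34741 of them found in RefSeq), 932 several and 9160 none. R 4.3.3 and limma 3.58.1 (lmFit, eBayes) fitted 6 group means with 6 residual degrees of freedom, with two-sided tests and Benjamini-Hochberg adjustment. A fold "at least" takes the dim group at the filter level where both its arrays lie under it. The fit and the adjustment, but not the normalisation, floor or filter, were tested on simulated data in which few probe sets differed.

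All 10 members are named. Of each further list, up to 5 called genes with the largest 48 h difference are named, plus Cdkn1a, Mdm4, Cdkn2a, Sesn3, Ddit4l, Map3k4, Atf4, Ddit3 and Tsc22d3, and for each member the 3 nearest genes. Members and lists were chosen with earlier results of these data known. Alternatives changed the scaling, filter, floor, pseudocount, model, control line and the arrays included; array totals carry no depth, and the number of arrays limits the precision.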

Additional observations from a re-analysis of the deposited data

How the results depend on the processing

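Of 152 member differences, 62 passed. Flooring at 1 and a robust prior changed no call, and a pseudocount of 16 added 1. Numbers of member probe sets that passed moved as follows, with the main count in parentheses. Spike-in scaling left 4 (12) for 3 h, 2 (9) for 12 h, 2 (8) for 24 h, 0 (2) in HAFTL, 0 (8) from 3 to 12 h, 3 (9) from 12 to 24 h, 0 (5) from 24 to 48 h and 8 (17) over the course. Median centring and no filter each left 3 (5) from 24 to 48 h, and an intensity trend gave 4 (2) in HAFTL. Fits of only the groups compared left 0 (2) in HAFTL, 2 (8) from 3 to 12 h and 0 (5) from 24 to 48 h, where 115, 2273 and 419 of all 26524 probe sets passed, and averaging the probe sets of a gene left 0 genes (1) in HAFTL. The cause was not tested. Signs turned under spike-in scaling for Sesn2 1425139_at at 3 h (0.0681), Trp53inp1 1416926_at at 24 h (0.10), Sesn3 at 3 h (0.0405), Atf4 at 12 h (0.36), Atr at 3 h (0.19), Eif4ebp1 at 3 h (0.0173) and Asns at 3 h (0.18), and with HAFTL as the control Trp53inp1 at 48 h was -0.34. Leaving out each array in turn gave 7 to 12 at 3 h (lowest without the second vehicle array), 8 to 10 at 12 h, 5 to 9 at 24 h and 5 to 10 at 48 h (both lowest without the first vehicle array). The ranges were 0 to 3 in HAFTL, 3 to 9 from 3 to 12 h, 4 to 9 from 12 to 24 h, 1 to 5 from 24 to 48 h and 16 to 18 over the course. Sample numbers did not pair the arrays: over 15 pairs of conditions, deviations of same-numbered arrays correlated between -0.034 and 0.027. With the number as a replicate block, 8 of the 62 calls were lost and none was gained, leaving 8 for 3 h, 9 for 12 h, 8 for 24 h and 8 for 48 h. With 2 arrays per condition and signals near the filter level, small differences in dim probe sets were not measurable.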
